A study of Mus musculus with 15 samples.

Results

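Retinoic acid genes were examined in the RNA sequencing of mouse retinal pigment epithelium (RPE) with and without a *Prom1* deletion. With earlier results of these data known, a set of 10 genes was chosen by gene symbol. They were the retinaldehyde dehydrogenases *Aldh1a1*, *Aldh1a2* and *Aldh1a3*, the retinoic acid-binding proteins *Crabp1* and *Crabp2*, the receptors *Rara*, *Rarb* and *Rarg*, the retinoic acid hydroxylase *Cyp26b1*, and *Rarres2*, the gene for chemerin. Of the 10 genes, 9 were among the 20910 genes counted in cultured cells, 9 were among the 25038 genes counted in tissue, and 8 were in both. *Aldh1a2* was not analysed here in the cultured cells, and *Crabp1* was not analysed here in the tissue.

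Retinoic acid is made from vitamin A in consecutive oxidations, from retinol to retinaldehyde and from retinaldehyde to retinoic acid, the latter by the ALDH1A enzymes. CRABP proteins carry it in the cytoplasm, CRABP2 delivering it to nuclear receptors that pair with RXR on DNA, and CYP26 enzymes break it down. In the eye, RPE and choroid handle retinoids for vision and are a source of retinoic acid, and *Rarb* is a textbook target of its own receptor family.

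Cultured mouse RPE (mRPE) cells came from pooled C57/BL6J mice aged 8 to 12 weeks and had been immortalised with the HPV E6/E7 genes. The libraries were of WT mRPE (4 libraries) and of the *Prom1*-KO lines KO22 (3 libraries) and KO26 (2 libraries). These were 2 independent lines made with Cas9 and a guide to a *Prom1* exon, so that a line and its deletion cannot be told apart. The methods also name a scrambled guide for cells with Cas9. They do not say whether the cells of the WT libraries had Cas9 or that guide. The 9 libraries carried the name prefixes 8995 (1 library of each kind) and 9262 (3 WT, 2 KO22 and 1 KO26), which were treated as batches. RPE/choroid dissected from WT mice (3 libraries) was compared with that of *Prom1* fl/fl mice crossed with RPE65-Cre mice and gavaged with tamoxifen (3 libraries). The medium of the cells listed serum and triiodothyronine and no retinoid among its supplements. Mice of the project were 6 to 8 weeks old by the methods, which do not name the tissue donors there, and whether WT mice carried Cre or floxed alleles or received tamoxifen is not given in the sources used here. The study set both KO26 libraries aside as outliers, and since no other KO26 library was analysed here, every KO26 value below rests on them. Nothing in the labels ties a library to a separate culture or animal, so that p-values measure the spread between these libraries.

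Total counts were 8076188 to 27537863 per mRPE library and 48154444 to 61766179 per tissue library. Mitochondrial genes took 17.61% to 21.65% of the counts in WT mRPE, 14.03% to 16.28% in KO22, without overlap, and 17.43% and 12.9% in KO26. In tissue they took 64.93% to 71.31% in 5 libraries and 84.17% in KO replicate 3, which kept 9776466 other counts. *Prom1* was not analysed here in mRPE. In tissue it stood at 48.7, 49.55 and 53.33 CPM (counts scaled to library size) in WT and 49.89, 48.11 and 35.53 CPM in KO, a log2 fold change of -0.18 by edgeR (adjusted p = 0.824). Counts per gene do not show which exons were read, so they are no check of the deletion, and the tissue libraries are called KO by their labels. Of 10 RPE markers, only *Mitf* and *Best1* were analysed in mRPE, with sums of 6.198 to 10.51 CPM in WT, 13.73 to 37.53 in KO22 and 3.387 to 6.477 in KO26. *Mitf* was called higher in KO22 (log2 fold change 1.41, edgeR adjusted p = 0.0055) and did not pass in KO26 (-1.54, adjusted p = 0.0864). The 5 fibroblast and stroma markers analysed there summed to 12800 to 17500 CPM in WT, 19870 to 21790 in KO26 and 5565 to 8668 in KO22. Of these, 3 were called lower in KO22 and none in KO26, where 13.8% and 0.719% of all genes tested were called lower. Of 3 endothelial markers, *Kdr* was at 151.2 to 234.5 CPM in WT, 55.29 and 72.29 in KO26 and 0.3459 to 3.712 in KO22. *Pecam1* and *Plvap* were close to absent in every line, and *Plvap* went the other way, called higher in KO22 (log2 fold change 1.82, adjusted p = 0.0192). Sums of 9 marker lists of cell types in KO22 lay above WT for 2 lists (RPE, macrophage and immune). They lay below WT for 6 and overlapped for photoreceptors, and in KO26 they overlapped for 6. Of all genes tested, 50.1% did not overlap in KO22 against WT and 24.7% in KO26 against WT. Some lists rested on few genes, with 1 tested for melanocytes and 2 each for RPE, immune cells and muscle. Of the 5 inner retina neuron genes, whose sum lay below WT in KO22, 2 were higher and 2 lower without overlap. The part of these markers and of the mitochondrial share in the results was not tested.

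The promoter of *Rarb* is shown first because it carries a retinoic acid response element and because *Rarb* was among the genes that differed. The stretch is the 250 bases before a RefSeq start of *Rarb* in GRCm38.p6, chr14:16575477-16575726, minus strand. Capitals mark the half-sites of a DR5 element, a pair of receptor half-sites in the same direction with 5 bases between them.
Rarb: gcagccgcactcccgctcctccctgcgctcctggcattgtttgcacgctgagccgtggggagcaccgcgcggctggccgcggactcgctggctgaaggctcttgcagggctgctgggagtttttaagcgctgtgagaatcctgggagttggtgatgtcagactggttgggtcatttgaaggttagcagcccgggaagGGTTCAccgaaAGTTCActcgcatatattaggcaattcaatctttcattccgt

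The element of *Rarb* lay from -53 to -37 relative to that start. Windows were at hand for 40 of 51 other retinoid pathway genes, and 1 of these held a DR5 element, that of *Cyp26a1*, another retinoic acid hydroxylase, from -32 to -16 on the opposite strand. The 2 elements are set side by side, each 5′ to 3′ on its own strand.
Rarb element: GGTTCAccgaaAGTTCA
Cyp26a1 element: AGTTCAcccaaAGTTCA

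A half-site was counted as A or G, then G, then G or T, then TCA, on either strand. DR5 elements were found in 32 of 32841 RefSeq promoter windows of 300 bases, which is 0.0974%. Elements with 2 bases and 1 base between the half-sites (DR2 and DR1) were found in 0.268% and 0.222%. Windows were at hand for 7 of the 10 genes, and of these *Rarb* alone held a DR5 element, with no DR1 or DR2 element in any. A match is a description of letters, and binding was not measured. *Cyp26a1* was not analysed here in mRPE and was at 1.23 ± 0.224 CPM in WT tissue (SD, n = 3) against 1.39 ± 0.567 in KO (n = 3).

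WT mRPE cells held *Aldh1a1* far above the other retinoic acid genes. On a scale of CPM per kilobase of exon, *Aldh1a1* was at 53.9 ± 15.8 (SD, n = 4). Next came *Rara* at 4.93 ± 1.07, *Rarg* at 3.59 ± 0.463, *Cyp26b1* at 2.46 ± 1.27 and *Rarres2* at 1.94 ± 0.218. *Crabp2* (1.02 ± 0.838), *Rarb* (0.75 ± 0.138) and *Aldh1a3* (0.546 ± 0.146) were lower, and *Crabp1* had no count. In that order only *Aldh1a1* and *Rara*, and *Aldh1a3* and *Crabp1*, were neighbours whose libraries did not overlap. In KO26 *Aldh1a1* still led, at 27.8 ± 14.4 (n = 2), with *Rara* next at 6.46 ± 0.948. In KO22 the order was another one. *Crabp2* led at 30.5 ± 16.1 (n = 3), followed without overlap by *Rarg* at 5.33 ± 0.503, *Rara* at 3.55 ± 0.076 and *Rarb* at 2.9 ± 0.822, while *Aldh1a1* stood at 0.46 ± 0.252 and overlapped *Rarres2* above it and *Crabp1* below it.

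**Figure D1:**
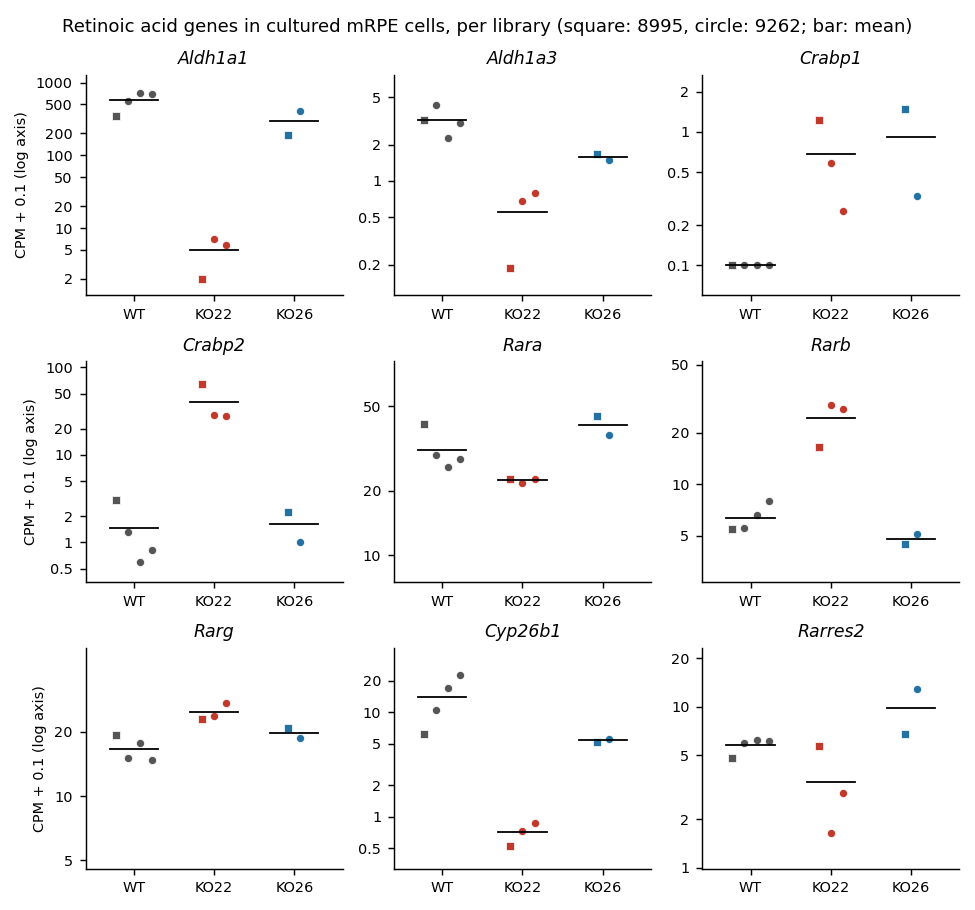
CPM + 0.1 on a log axis for the 9 retinoic acid genes counted in mRPE, with 1 point per library in WT (n = 4), KO22 (n = 3) and KO26 (n = 2). Squares are libraries of prefix 8995, circles those of 9262, and the line is the group mean. *Aldh1a1* lies at 348.8 to 716 CPM in WT and 1.903 to 7.087 in KO22, whereas *Crabp2* lies at 0.4909 to 2.94 in WT and 27.47 to 64.95 in KO22.

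KO22 was compared with WT mRPE to ask which of these genes differed in that line. *Aldh1a1*, *Aldh1a3* and *Cyp26b1* fell, and *Crabp2* and *Rarb* rose. A gene was called changed where edgeR's adjusted p was below 0.05 and its log2 fold change was beyond ±1.2. Both limits were passed by 5 of the 8 retinoic acid genes tested, 2 higher and 3 lower, where 25.2% of the 20455 genes tested passed them (11.4% higher and 13.8% lower). The median log2 fold change of the 8 genes was -0.70, and that of all genes was -0.03. The groups did not overlap for 7 of the 8 genes, where 50.1% of all genes did not overlap. KO26, which carries a *Prom1* deletion as well, is described after KO22.

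The enzymes of synthesis were lower in KO22. *Aldh1a1* (chr19:20469539-20622825, plus strand, GRCm39) encodes a retinaldehyde dehydrogenase. Its level was 348.8, 551.5, 716 and 697.3 CPM in the WT libraries and 1.903, 7.087 and 5.819 CPM in the KO22 libraries. The highest KO22 library stood far under the lowest WT library, and the mean CPM was 117-fold lower. The log2 fold change was -6.84 (SE 0.229, edgeR adjusted p = 2.69e-07). Within prefix 8995 the difference in log2(CPM + 0.5) was -7.18 and within 9262 it was -6.55. *Aldh1a3* (chr7:66040638-66077850, minus strand), a second enzyme of the same step, was lowly expressed. It had 3.139, 4.182, 2.16 and 2.942 CPM in WT and 0.08648, 0.5785 and 0.6983 CPM in KO22, the last resting on 1, 12 and 9 counts. The groups did not overlap, and *Aldh1a3* fell by 2.73 on the log2 scale (SE 0.454, adjusted p = 0.000815).

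The binding protein *Crabp2* (chr3:87855973-87860683, plus strand) showed the largest rise of the set in KO22. WT libraries held 2.94, 1.234, 0.4909 and 0.7177 CPM and KO22 libraries 64.95, 28.49 and 27.47 CPM. The 8995 library was the highest of its group in both, and the groups were far apart. The log2 fold change was 4.80 (SE 0.226, edgeR adjusted p = 7.13e-07), with differences in log2(CPM + 0.5) of 4.25 within prefix 8995 and 4.48 within 9262. *Crabp1* (chr9:54671171-54680403, plus strand), its paralogue, was close to absent. It had 0 counts in all 4 WT libraries, of 63810580 counts in all, which allows a share of up to 0.047 CPM (counting error only). KO22 libraries had 13, 10 and 2 counts, a mean at least 1.99-fold above a floor of 3 counts per WT library. *Crabp1* did not reach 5 counts in 3 of these 7 libraries and was not tested.

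Of the nuclear receptors, *Rarb* (chr14:5650540-6041094, plus strand in GRCm39) rose. It was at 5.364, 5.416, 6.48 and 7.823 CPM in WT and 16.34, 28.93 and 27.47 CPM in KO22, so that every KO22 library was above every WT library. Its mean CPM was 3.87-fold higher, with a log2 fold change of 1.96 (SE 0.173, edgeR adjusted p = 1.94e-05). Exons of *Top2b*, a DNA topoisomerase gene on the opposite strand, cover 31.2% of the *Rarb* exon bases, and the strand setting of the counting is not given in the sources used here, so that reads there could not be told apart. *Top2b* itself was at 381.4 ± 67.5 CPM in WT and 347.2 ± 77.4 in KO22 (SD, n = 4 and 3), with a log2 fold change of -0.14 (adjusted p = 0.564). *Rara* (chr11:98818612-98865768, plus strand) was at 25.82 to 40.92 CPM in WT and 21.79 to 22.66 in KO22. *Rarg* (chr15:102143373-102165952, minus strand) was at 14.71 to 19.19 CPM in WT and 22.92 to 27.31 in KO22. Neither group pair overlapped, yet both differences were under the fold limit, with log2 fold changes of -0.48 for *Rara* (SE 0.138, adjusted p = 0.0153) and 0.57 for *Rarg* (SE 0.145, adjusted p = 0.00884).

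*Cyp26b1* (chr6:84548396-84570890, minus strand), which hydroxylates retinoic acid for breakdown, fell. WT libraries held 6.158, 10.42, 16.79 and 22.61 CPM and KO22 libraries 0.4324, 0.6267 and 0.7759 CPM, on 5, 13 and 10 counts. The WT libraries spread widely and still stood clear of KO22, with a mean CPM 22.9-fold higher in WT. The log2 fold change was -4.42 (SE 0.368, edgeR adjusted p = 1.39e-05), and within the prefixes the differences in log2(CPM + 0.5) were -2.84 and -3.77.

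*Rarres2* (chr6:48546630-48549762, minus strand), whose product chemerin is a secreted attractant first known as a retinoid-responsive gene, did not pass. It was at 4.728, 5.827, 6.088 and 6.028 CPM in WT and 5.621, 1.543 and 2.793 CPM in KO22, and the groups overlapped through the 8995 library of KO22. The log2 fold change was -0.93 (edgeR adjusted p = 0.0584). The direction differed between prefixes, at 0.23 within 8995 and -1.32 within 9262 on log2(CPM + 0.5). Without WT replicate 1 or KO22 replicate 1, which are the 8995 libraries, the log2 fold change was -1.54 and -1.52 and passed both limits. Exons of *Lrrc61*, on the opposite strand, cover 31.9% of the *Rarres2* exon bases, and *Lrrc61* had a log2 fold change of -1.17 (adjusted p = 0.00885). Counts of the 2 genes could not be told apart there.

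In KO26 the retinoic acid genes stayed closer to WT, and 1 of 9 passed both limits, where 1.92% of 20737 genes did (1.21% higher and 0.719% lower). The same 4 WT libraries served both lines. The gene was *Crabp1*, with 30 and 2 counts against 0 in every WT library and a log2 fold change of 6.44 (SE 1.13, edgeR adjusted p = 0.0285). This fitted value depends on the prior count, the mean being at least 2.76-fold above a floor of 3 counts per WT library. *Crabp1* entered the test through KO libraries alone and so had to differ from WT. The call was lost without WT replicate 1, 2, 3 or 4, with adjusted p from 0.0654 to 0.122, and without a batch term, at 0.0753, and it could not be made without KO22 replicate 1 or 2 or KO26 replicate 1.

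*Aldh1a1* was at 189.2 and 407.6 CPM in KO26, the 8995 library under every WT library and the 9262 library among them. Its log2 fold change was -0.73 (SE 0.193, edgeR adjusted p = 0.0687), with a difference of -0.88 within prefix 8995 and -0.67 within 9262 on log2(CPM + 0.5). *Aldh1a3* was at 1.578 and 1.388 CPM (log2 fold change -0.97, adjusted p = 0.269) and *Cyp26b1* at 5.151 and 5.436 CPM (-1.02, adjusted p = 0.178). Both lay below every WT library without passing the test. *Rarb* at 4.362 and 4.973 CPM was also below every WT library (-0.30, adjusted p = 0.508). *Crabp2* at 2.134 and 0.9253 CPM lay within the WT range (-0.19, adjusted p = 0.784). *Rarres2* at 6.682 and 12.72 CPM lay above every WT library (0.74, adjusted p = 0.352). *Rara* and *Rarg* had log2 fold changes of 0.32 and 0.22, with adjusted p = 0.294 and 0.512. With 2 libraries, the groups did not overlap for 24.7% of all genes, and for 5 of these 9.

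The lines were then compared with each other, to test the difference between them directly. Of 9 genes tested, 6 passed both limits, 2 higher and 4 lower in KO22, where 18.3% of 20737 genes did (7.56% higher and 10.7% lower). *Aldh1a1* was lower in KO22 than in KO26, with a log2 fold change of -6.12 (SE 0.232, edgeR adjusted p = 3.01e-07). *Cyp26b1* was lower as well, at -3.39 (SE 0.471, adjusted p = 4e-04). *Crabp2* was higher, at 5.00 (SE 0.332, adjusted p = 3.71e-06), and *Rarb* at 2.25 (SE 0.25, adjusted p = 9.75e-05). These 4 calls were kept with each library left out in turn. *Aldh1a3* was lower at -1.74 (adjusted p = 0.0352), a call lost in 6 of 9 fits with 1 library left out, with values from -2.01 to -1.21. These were the fits without WT replicate 2 or 4, KO22 replicate 1 or 2, or KO26 replicate 1 or 2. *Rarres2* was lower at -1.57 (adjusted p = 0.0225), a call lost without KO22 replicate 2 (-1.13), KO22 replicate 3 (-1.47) or KO26 replicate 2 (-0.80). *Lrrc61*, which overlaps it, had -1.74 (adjusted p = 0.00289). *Rara* was at -0.80 (adjusted p = 0.00439), under the fold limit, and *Rarg* at 0.35 (adjusted p = 0.179). *Crabp1* was at -0.04 with an SE of 1.19, an error too wide to separate the lines.

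**Figure D2:**
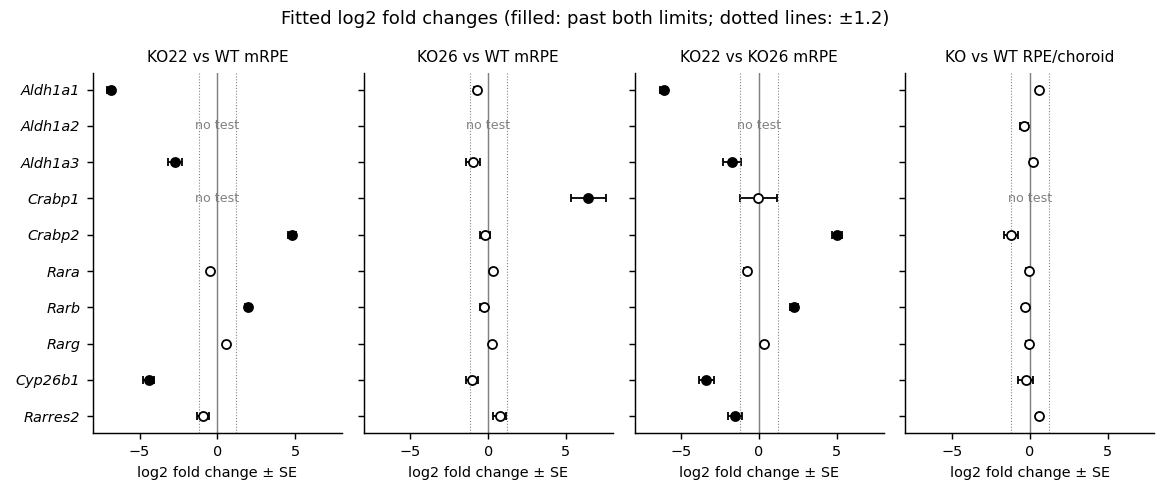
Fitted log2 fold changes with their standard errors for the 10 retinoic acid genes in the 4 comparisons. Filled points passed both limits, open points did not, dotted lines mark ±1.2, and "no test" marks genes without a value. KO22 differs from WT and from KO26 in the same direction for *Aldh1a1* (-6.84 and -6.12) and *Crabp2* (4.80 and 5.00), which share the KO22 libraries, while all 9 points of RPE/choroid are open.

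Around the 10 genes, 51 other retinoid pathway genes were listed, of which 36 were tested in mRPE. In KO22 against WT, 5 rose and 11 fell, where 11.4% of all genes tested rose and 13.8% fell, and the median log2 fold change was -0.15 against -0.03 for all genes. None of the 36 passed both limits in KO26 against WT by edgeR, where 1.92% of all genes did. An unadjusted p under 0.05 was reached by 9 of them, a limit whose share of all genes is not given here. DESeq2 called 3 of them, among 629 genes in all. In KO22 against KO26, 2 were higher and 11 lower, where 7.56% and 10.7% of all genes were, with a median of -0.35 against 0.00 for all genes.

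Retinol enters cells through STRA6, whose gene rose in KO22. *Stra6* was at 5.165, 2.811, 1.08 and 1.938 CPM in WT and 16.17, 11.43 and 7.371 CPM in KO22, with no overlap. Its log2 fold change was 2.04 (SE 0.291, edgeR adjusted p = 0.000325). KO26 held 7.981 and 7.749 CPM of *Stra6*, above every WT library, with 1.38 (adjusted p = 0.0697). The 2 lines were not separated for *Stra6* (0.65, SE 0.382, adjusted p = 0.216).

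Of 10 genes that interconvert retinol and retinaldehyde, 1 rose and 3 fell in KO22, where 11.4% and 13.8% of all genes did. Of those that fell, 1 not named here came to -0.92 without WT replicate 1 and -0.89 without KO22 replicate 1, under the fold limit. *Adh1*, a cytosolic alcohol dehydrogenase that oxidises retinol, had 812, 329, 282 and 263 counts in WT and 0, 2 and 0 in KO22. Its mean was at least 97.7-fold lower than in WT against a floor of 3 counts per library (edgeR adjusted p = 7.47e-07). KO26 held 16.98 and 8.443 CPM of *Adh1* against 18.87 to 32.26 in WT, and its log2 fold change of -1.197 was under the fold limit (adjusted p = 0.0469). *Dhrs9*, a retinol dehydrogenase of the short-chain family, was at 116, 78.77, 105 and 106.1 CPM in WT and 6.313, 5.303 and 5.121 CPM in KO22. It fell by 4.21 on the log2 scale (SE 0.157, adjusted p = 3.23e-07), while KO26 at 75.68 and 91.6 CPM overlapped WT. *Dhrs3*, which reduces retinaldehyde back to retinol, was at 7.267 to 9.615 CPM in WT and 18.08 to 24.99 in KO22. Its log2 fold change of 1.21 (adjusted p = 0.000133) lay just past the fold limit, and it came to 1.14 to 1.17 without WT replicate 1 or 2 or KO22 replicate 1 or 2.

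In a list of RXR genes, genes of the route through PPARD and orphan receptors, 1 of 5 tested genes rose and 1 fell in KO22. Of all genes tested there, 11.4% rose and 13.8% fell, shares that also stand beside the cofactors below. *Fabp5*, which carries retinoic acid to PPARD, was at 6.578 to 31.47 CPM in WT and 28.69 to 92.96 in KO22. The ranges overlapped across prefixes, the 8995 library being the highest in each group, and the log2 fold change was 1.79 (SE 0.181, edgeR adjusted p = 4.1e-05). *Rora*, an orphan receptor, was at 75.53 to 116.9 CPM in WT and 38.62 to 53.79 in KO22. It had -1.23 (adjusted p = 0.000582) and fell under the fold limit, to -1.13 to -1.19, without WT replicate 2 or 3 or KO22 replicate 2 or 3. Of 8 receptor cofactors, *Ncoa1*, a coactivator, fell, from 58.54 to 67.78 CPM in WT to 18.07 to 21.45 in KO22 (log2 fold change -1.63, adjusted p = 7.36e-06). KO26 at 52.99 and 62.69 CPM of *Ncoa1* overlapped WT.

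The 11 textbook retinoic acid target genes tested moved in both directions in KO22, 3 higher and 5 lower, where 11.4% and 13.8% of all genes did. *Stra6* and *Dhrs3*, which also belong to the lists on retinol handling, were among those that rose. *Hoxb4*, a homeobox gene, was at 2.503, 1.097, 1.276 and 1.866 CPM in WT and 0.08648, 0.1446 and 0.3104 CPM in KO22, on 1, 3 and 4 counts (log2 fold change -3.18, SE 0.507, edgeR adjusted p = 0.000632). The groups did not overlap for this lowly counted gene, and *Hoxb4* was lower in KO22 than in KO26 as well, with a log2 fold change of -3.40 (adjusted p = 0.00153). The list median was -1.197 in KO22 against WT, beside -0.03 for all genes. Of the 5 lower genes, 1 not named here had at most 3 counts in any KO22 library, and its groups overlapped. Its call (edgeR adjusted p = 0.0459) was lost with DESeq2 (adjusted p = 0.126) and without any single KO22 library. No gene of the list passed in KO26.

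The chemerin receptors were low. *Cmklr1*, the signalling receptor, was at 3.947 to 7.708 CPM in WT and 1.302 to 3.892 in KO22 (log2 fold change -1.55, SE 0.274, edgeR adjusted p = 0.00115). *Ccrl2*, which binds chemerin without signalling, was at 0.6357 to 4.378 CPM in WT and 4.423 to 7.328 in KO22 (1.28, adjusted p = 0.0425). The WT replicate 1 library was the low one, and without it the value was 0.63. The call on *Ccrl2* was also lost without WT replicate 2, 3 or 4 or KO22 replicate 1 or 2.

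**Figure D3:**
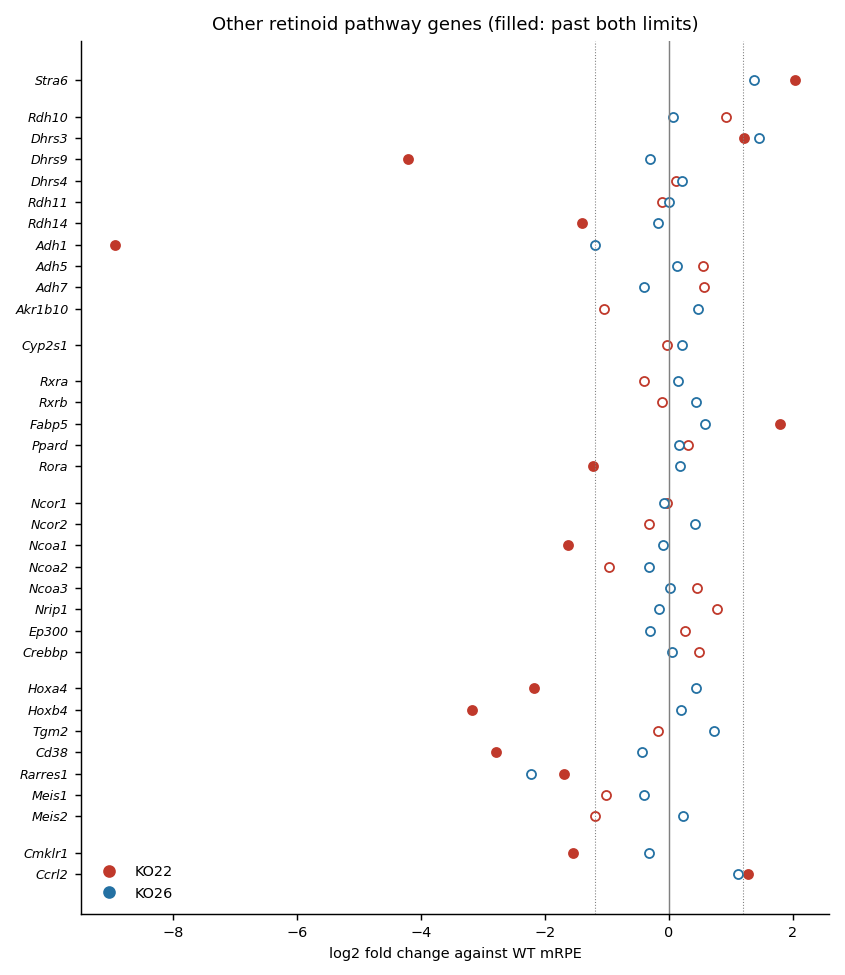
Log2 fold changes against WT mRPE of 34 other retinoid pathway genes tested, for KO22 (red) and KO26 (blue), in blocks by role from retinol uptake at the top to chemerin receptors at the bottom. Filled points passed both limits and dotted lines mark ±1.2. In KO22 14 points are filled, 4 to the right and 10 to the left, and in KO26 none. The point of *Adh1* at the far left is a fitted value, since no KO22 library had more than 2 counts of it.

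The genes whose pattern over the 9 mRPE libraries was closest to *Aldh1a1* were sought among 20736 genes by Euclidean distance of centred log2 CPM. They were *Cldn2*, a claudin of tight junctions (distance 0.916), *Svep1* (1.34), *Bmp3*, a BMP family ligand (1.39), *Fmod*, a collagen-binding proteoglycan (1.55), and *Tmem255b* (1.57), where *Aldh1a1* spanned 8.22 on the log2 scale. *Cldn2* was at 74.7 ± 22 CPM in WT, 0.383 ± 0.294 in KO22 and 44.8 ± 31.6 in KO26 (SD, n = 4, 3 and 2). *Svep1* was at 322.2 ± 96.5, 5.09 ± 3.41 and 211.2 ± 9.74 CPM in the same order. The points share libraries and depth, and the ranking is a description.

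In WT RPE/choroid no single retinoic acid gene stood apart from the rest. The tables were normalized separately, so the levels are set beside each other without a test. Per kilobase of exon, WT tissue held *Rarg* at 3.59 ± 0.217 CPM (SD, n = 3), *Aldh1a2* at 3.1 ± 0.704, *Rarres2* at 2.89 ± 0.212 and *Aldh1a1* at 2.81 ± 0.126, each overlapping the next. Below a gap came *Rara* at 1.89 ± 0.303, *Aldh1a3* at 1.34 ± 0.258, *Cyp26b1* at 0.836 ± 0.419, *Crabp2* at 0.804 ± 0.352 and *Rarb* at 0.783 ± 0.0563, with overlap between neighbours. On this scale *Rarg* and *Rarb* were at 3.59 and 0.75 in WT mRPE and 3.59 and 0.78 in WT tissue. *Aldh1a1* was at 53.9 in the cells and 2.81 in the tissue. Mitochondrial genes are part of the library size in CPM. They took 17.61% to 21.65% of the counts in WT mRPE and 64.93% to 69.14% in WT tissue. Values of cells and tissue are thus not shares of a like whole, and similar values do not show equal levels.

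**Figure D4:**
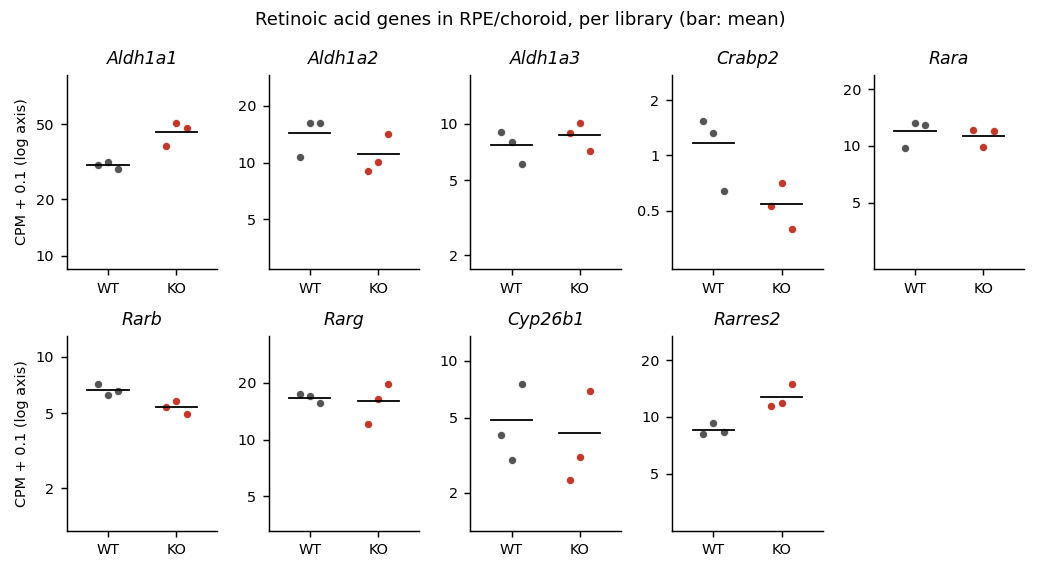
CPM + 0.1 on a log axis for the 9 retinoic acid genes counted in RPE/choroid, with 1 point per library in WT and KO (n = 3 each) and a line at the group mean. *Aldh1a1* (28.79 to 31.49 CPM in WT, 38.03 to 50.8 in KO) and *Rarres2* lie higher in every KO library, and *Rarb* lies lower in every KO library. None of the 9 genes passed the test.

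The labelled KO was compared with WT in RPE/choroid to ask whether these genes differed in the tissue. None of the 9 genes tested passed both limits with edgeR, where 0.189% of 24926 genes did. An unadjusted p under 0.05 was reached by 3 of them, a limit whose share of all genes is not given here. DESeq2 called none of the 9, while it called 271 genes in all. The median log2 fold change of the 9 was -0.08, beside 0.01 for all genes. In bulk tissue, fewer cells of a type and less RNA per cell cannot be told apart.

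*Aldh1a1* was at 30.16, 31.49 and 28.79 CPM in WT and 38.03, 50.8 and 47.6 CPM in KO, every KO library above every WT library. Its log2 fold change was 0.59 (SE 0.143, edgeR adjusted p = 0.246), and 0.51 to 0.70 with 1 library left out. DESeq2 gave an adjusted p of 0.0338 for it, with a fold under the limit. *Rarres2* was at 7.981, 9.15 and 8.206 CPM in WT and 11.38, 11.67 and 14.83 CPM in KO, also without overlap (0.58, SE 0.151, adjusted p = 0.302). Its antisense neighbour *Lrrc61* had 0.42 (adjusted p = 0.557). *Rarb* was at 7.055, 6.122 and 6.471 CPM in WT and 5.319, 5.681 and 4.843 CPM in KO (-0.31, SE 0.137, adjusted p = 0.626). The groups did not overlap for these 3 genes, 2 higher and 1 lower in KO, where 14.6% of all genes did not overlap (6.71% higher and 7.89% lower).

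*Aldh1a2* (chr9:71122630-71203527, plus strand), the third enzyme of synthesis, was at 10.56, 16.2 and 16.19 CPM in WT and 8.93, 10.01 and 14.03 CPM in KO (log2 fold change -0.38, SE 0.235, edgeR adjusted p = 0.734). *Crabp2* was at 1.431, 1.218 and 0.5393 CPM in WT and 0.4271, 0.604 and 0.2985 CPM in KO, on 9 to 102 counts (-1.23, SE 0.447, adjusted p = 0.517). Both overlapped between the groups, and *Crabp2* was among the 3 genes with an unadjusted p under 0.05. *Aldh1a3* (0.18, SE 0.197), *Rara* (-0.08, SE 0.165), *Rarg* (-0.06, SE 0.188) and *Cyp26b1* (-0.26, SE 0.489) overlapped as well, with adjusted p from 0.863 to 0.965. *Cyp26b1* was uneven in both groups, at 2.875 to 7.448 CPM in WT and 2.252 to 6.833 in KO.

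Upstream of these genes, 2 of 40 other retinoid pathway genes tested passed in RPE/choroid, both lower in KO. Of all 24926 genes tested, 0.189% passed, all of them lower in KO. DESeq2 called 4 of the pathway genes lower, among 271 genes in all. *Lrat* encodes the acyltransferase that stores retinol as its ester. It was at 163.7, 108.6 and 165.1 CPM in WT and 11.96, 12.86 and 15.89 CPM in KO, a mean 10.7-fold lower. The log2 fold change was -3.43 (SE 0.224, edgeR adjusted p = 0.00445), and the call was kept with each library left out in turn. *Rdh10* encodes a retinol dehydrogenase of the step before ALDH1A. It was at 76.37, 49.61 and 72.57 CPM in WT and 12.11, 10.28 and 11.54 CPM in KO, without overlap. The log2 fold change was -2.55 (SE 0.195, adjusted p = 0.00556), and without KO replicate 2 the adjusted p was 0.0546. In mRPE *Rdh10* had log2 fold changes of 0.92 in KO22 (adjusted p = 0.00047, under the fold limit) and 0.06 in KO26 (adjusted p = 0.906).

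Part of the RPE markers were lower beside these 2 genes. The 10 markers summed to 1068 to 1498 CPM in WT and 191.7 to 239.2 CPM in KO, none of them at 0 in any library, and without *Lrat*, which is one of them, to 959.3 to 1334 CPM and 175.8 to 227.3 CPM. Of the 10, 3 passed as lower (*Rpe65*, *Rgr* and *Lrat*), 5 were lower without overlap and 5 overlapped. Of all genes tested in tissue, 0.189% passed, and 7.89% were lower and 6.71% higher without overlap. *Rpe65*, the retinoid isomerase of the visual cycle, was at 203.8 to 287.2 CPM in WT and 1.126 to 5.975 in KO. *Rgr*, a retinaldehyde-binding opsin of the RPE, was at 546.1 to 786.1 CPM in WT and 6.697 to 30.72 in KO. The log2 fold changes of *Krt8* (-0.04), *Krt18* (-0.23), *Best1* (-0.25) and *Tyr* (0.31) were among those that overlapped. The 6 endothelial markers summed to 81.48 to 161.7 CPM in WT and 50.52 to 69.24 CPM in KO, and 4 of them were lower without overlap. *Plvap* had the largest difference of these (log2 fold change -1.69, edgeR adjusted p = 0.0993), and none of the 6 passed. Glial markers summed to 528.3 to 779.6 CPM in WT and 587.4 to 923 CPM in KO with overlap, while 3 of the 6 were higher without overlap. *Gfap*, an astrocyte filament gene, was at 0.1683 to 1.487 CPM in WT and 3.863 to 19.67 in KO (4.11, SE 0.951, adjusted p = 0.221), and *Slc1a3*, a glial glutamate transporter, had 2.04 (adjusted p = 0.222). Photoreceptor markers summed to 39.07 to 1118 CPM in WT and 19.11 to 538.5 CPM in KO, and their range overlapped between the groups, as did the sums of the other 5 lists. The part of these cell types in the differences of *Lrat*, *Rdh10* and the retinoic acid genes was not tested.

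**Figure D5:**
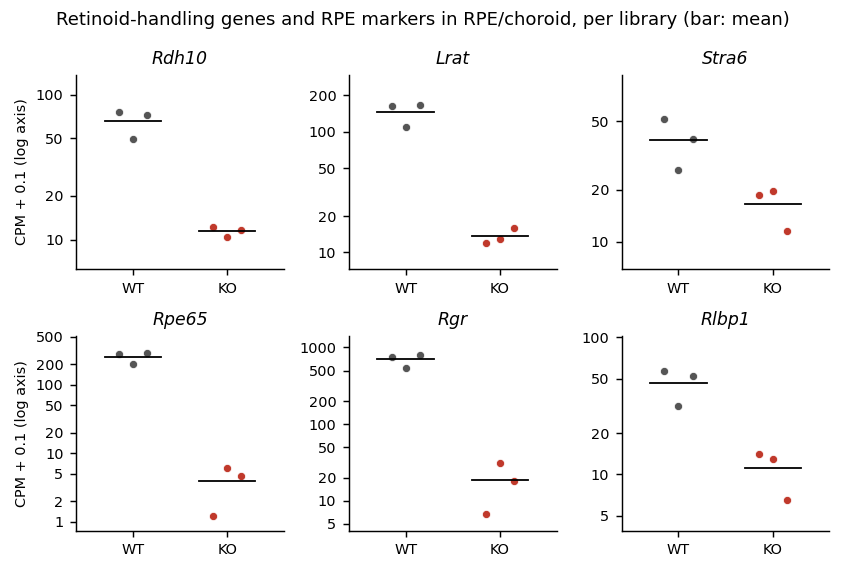
CPM + 0.1 on a log axis in RPE/choroid for retinoid-handling genes (*Rdh10*, *Lrat*, *Stra6*) and RPE markers (*Rpe65*, *Rgr*, *Rlbp1*), with 1 point per library (n = 3 each) and a line at the group mean. *Lrat* drops from 108.6 to 165.1 CPM in WT to 11.96 to 15.89 in KO and *Rpe65* from 203.8 to 287.2 to 1.126 to 5.975.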

How the data were processed

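RNA-seq libraries of mRPE cells (9) and RPE/choroid (6) were grouped by their sample labels. The authors trimmed reads with Trim Galore 0.6.7, aligned them to mm39 with STAR and deposited raw counts per gene for each kind of sample. The normalized signal values that the authors also deposited were not used. The paper names a TruSeq stranded kit and the labels an NEB stranded kit. Strand settings of the counting are not given in the sources used here.

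The 10 genes, the pathway and marker lists and the tests were chosen with earlier results of these data known. In R 4.3.3, edgeR 4.0.16 (quasi-likelihood test, TMM) tested the genes that reached 5 counts in 3 or more libraries, with the library-name prefix as a term for mRPE and Benjamini-Hochberg adjustment. One fit held the 7 libraries of KO22 and WT, another all 9 mRPE libraries for the comparisons of KO26, and a further one the 6 of RPE/choroid. A call needed an adjusted p below 0.05 and a log2 fold change beyond ±1.2. Standard errors are the absolute log2 fold change over the square root of F. CPM are on the TMM scale, within-prefix differences use a pseudocount of 0.5 CPM, and folds are ratios of mean CPM. The floor was 3 counts per library.

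Exon lengths and coordinates came from GENCODE vM39 on GRCm39 and promoters from RefSeq on GRCm38.p6. Named were the 10 genes, up to 2 called genes per direction, comparison and pathway list, and the 5 genes nearest to *Aldh1a1*. *Cyp26a1*, *Top2b*, *Lrrc61*, the markers given by name and the *Rdh10* values in mRPE were added after values were seen. Some genes of the lists are counted but not reported here by name. The fit was tested on simulated data. DESeq2 1.42.0, other size factors, no filter, no batch term, no fold limit, other sets of libraries and each library left out were tried as alternatives. Leaving out mitochondrial genes in tissue was chosen after seeing the data. Replicates of a group differed by 4.80 to 246.5 chi-square per degree of freedom, so none was a copy of another.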

Additional observations from a re-analysis of the deposited data

Results flagged for a closer look

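The KO22 and KO26 lines were each compared with the same 4 WT mRPE libraries. For 6 of the 9 retinoic acid genes tested the difference between their effects passed both limits (edgeR, log2 scale, KO22 minus KO26). Of all 20737 genes tested, 18.3% passed both limits for this difference. The difference was -6.12 for *Aldh1a1*, 4.999 for *Crabp2*, 2.254 for *Rarb* and -3.386 for *Cyp26b1*. It was -1.743 for *Aldh1a3* and -1.57 for *Rarres2*, both of which lost the call when some single libraries were left out. For *Rarres2* the overlapping gene *Lrrc61* moved alongside. KO26 has 2 libraries, both of which the study set aside as outliers. Whether the deletions, the lines or their culture set the differences was not tested.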

How the results depend on the processing

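For single genes, 837 of 908 values under an alternative kept their direction and their side of the limits, 57 lost the call, 6 gained it and 8 turned. The turned values were all of genes that had not passed, and with 1 library left out these genes ranged from -0.3 to 0.125 and from -0.124 to 1.276 (*Crabp2* and *Rarres2*, KO26 against WT), from -0.339 to 0.115 (*Crabp1*, KO22 against KO26), and in tissue from -0.875 to 0.215 (*Cyp26b1*), -0.245 to 0.103 (*Rarg*) and -0.21 to 0.005 (*Rara*). In KO26 against WT, *Crabp2* was 0.163 without a batch term and 0.125 without WT replicate 1, and *Rarres2* was -0.124 without KO26 replicate 2. In KO22 against KO26, *Crabp1* was 0.115 without KO22 replicate 3. In tissue, *Cyp26b1* was 0.215 without WT replicate 3 and 0.024 without KO replicate 1, *Rarg* was 0.103 without KO replicate 1 and *Rara* was 0.005 without KO replicate 2.

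With no fold limit, genes called rose to 10837 (KO22 against WT), 725 (KO26 against WT) and 7132 (KO22 against KO26), pathway genes to 11 higher and 17 lower in KO22 against WT, 1 lower in KO26 against WT and 9 higher in KO22 against KO26. For KO26 against WT, the 1 retinoic acid gene called higher became 0 with DESeq2, with no batch term and with WT and KO26 libraries only. Pathway genes there were 2 higher and 1 lower with DESeq2, 3 higher and 1 lower with WT and KO26 libraries only, and 1 lower with DESeq2's size factors, and all genes called were 629, 818 with those libraries only and 194 with no batch term. For KO22 against KO26, fitting their 5 libraries alone called 2 retinoic acid genes lower, 1 pathway gene higher and 2336 genes in all, and no batch term called 1 pathway gene higher. Libraries of prefix 9262 only gave 3 pathway genes higher in KO22 against WT. In tissue, DESeq2 called 4 pathway genes lower and 271 genes in all. The cause of these changes was not tested.

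With 1 library left out, all genes called ranged from 4402 to 5725 (KO22 against WT), 114 to 878 (KO26 against WT), 3278 to 4229 (KO22 against KO26) and 9 to 40 (tissue). Pathway genes ranged from 3 to 5 higher in KO22 against WT, from 0 to 3 higher and 0 to 1 lower in KO26 against WT, from 1 to 3 higher in KO22 against KO26 and from 1 to 2 lower in tissue. Retinoic acid genes ranged from 0 to 1 higher in KO26 against WT and from 2 to 4 lower in KO22 against KO26. No paired analysis was possible because the labels give no replicate numbers that the groups share. Low counts limit *Crabp1*, *Aldh1a3* and *Cyp26b1* in KO22, and KO26 rests on 2 libraries.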
